A study of Mus musculus with 4 samples.

Results

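The En1 domain is the stretch of mouse chromosome 1 between Marco and Insig2, the protein-coding neighbours of En1, at 120505025 to 121304352 in the genome build mm10. It is 799 kb long, with 97.5 kb before the En1 start and 702 kb after it. Its members are the accessible regions in 2 lists of ATAC-seq peaks, 1 list per stage, that overlap this interval. The E10.5 list placed 47 of its 99356 regions on chromosomes 1 to 19, X and Y in the domain, and the E11.5 list 14 of 37413. The regions were taken by position alone and not by their values, under rules set with earlier results of these data known.

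The study asked, by editing the genome in mouse embryos, which regulatory elements keep En1 expressed while the limb develops. The data analysed here come from wild-type embryos only, with no edited allele. Cells of fore- and hindlimbs were profiled together at E10.5 and at E11.5 (embryonic days by the sample titles, while the protocol text calls the earlier stage E10), with 2 samples per stage. Each stage has 1 list that joins both samples, so values below have no replicate spread, the depth behind them is unknown, and differences between the lists carry no test.

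En1 encodes the homeobox transcription factor Engrailed 1. In the limb bud it is made in the ventral ectoderm, where bone morphogenetic protein (BMP) signalling through the receptor Bmpr1a switches it on. There it keeps the ligand gene Wnt7a out of ventral ectoderm, and Wnt7a in dorsal ectoderm in turn induces Lmx1b in the dorsal mesenchyme below. Maenli, a long noncoding RNA locus of the domain, is known as a limb-specific activator of En1. The positions of Maenli and of the limb enhancers named by the study were not used here, and no region is assigned to either. Whole limb cells were used, and ventral ectoderm is a small part of them. Fewer cells with an open site and a less open site per cell cannot be told apart in such bulk samples.

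ATAC-seq marks DNA that the transposase Tn5 can reach. The signal value deposited for each region behaves as a total over the region and wide regions tend to have large values. The median signal was 838 over the E10.5 list and 722 over the E11.5 list, and the median width was 624 bp and 598 bp. The lowest signal was 200 in each list, so absence from a list does not show a closed site. Promoter regions of marker genes were looked up as a check of the tissue, for the genes with a start in the RefSeq promoter table. Limb mesenchyme genes had one in 6 of 6 cases at E10.5 and 5 of 6 at E11.5 (Tbx4 at E10.5 only), and surface ectoderm genes in 7 of 7 and 5 of 7 (Krt5 and Krt14 at E10.5 only). Both lists also held promoter regions of endothelial (1 of 2 genes in each) and nerve and glia genes (1 of 1 in each). Blood genes had one in 2 and 3 of 4 cases (Gata1 at E11.5 only). Muscle precursor genes had one in 2 and 1 of 2 (Myf5 at E10.5 only). Of all 17492 protein-coding genes with a listed start, 68.2% had such a region in the E10.5 list and 62.8% in the E11.5 list, so several of these counts lie near the background. An accessible promoter is not a measure of expression.

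RefSeq promoter tables for GRCm38.p6 (the assembly known as mm10) give 12 start sites for 9 of the 11 genes of the domain. At 2 of them a region lay within 1 kb, in both lists: the En1 start and 1 of the 4 listed starts of 2610027F03Rik, a long noncoding RNA gene on the same strand. The sequences around both starts are shown because they are the only listed transcription starts of the domain that regions approach this closely. Gm34352 and Gm41940 have no listed start and could not be looked up. Each runs from 250 bases before to 50 bases after the start, on the plus strand, at chr1:120602237-120602536 for En1 and chr1:120685165-120685464 for 2610027F03Rik. Capitals mark the matches to 11 short motifs searched on both strands.
En1: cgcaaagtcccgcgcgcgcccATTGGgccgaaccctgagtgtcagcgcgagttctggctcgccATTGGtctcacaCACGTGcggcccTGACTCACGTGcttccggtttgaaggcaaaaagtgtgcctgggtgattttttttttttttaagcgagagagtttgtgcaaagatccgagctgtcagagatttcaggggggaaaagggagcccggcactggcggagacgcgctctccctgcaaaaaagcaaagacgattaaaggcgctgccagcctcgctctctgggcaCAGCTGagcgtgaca
2610027F03Rik: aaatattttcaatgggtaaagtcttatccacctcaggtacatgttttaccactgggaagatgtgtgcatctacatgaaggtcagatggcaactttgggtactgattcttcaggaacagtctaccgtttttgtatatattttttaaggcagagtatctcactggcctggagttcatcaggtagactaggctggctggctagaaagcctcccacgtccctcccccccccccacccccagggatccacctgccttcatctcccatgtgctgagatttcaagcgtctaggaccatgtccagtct
All 300 bases of the En1 sequence lay inside an E10.5 region, and none inside an E11.5 region. The summit of that E10.5 region, its point of highest signal, stood 196 bp before the start. No base of the 2610027F03Rik sequence was inside a region of either list. The shared region there began 340 bp after the start at E10.5 and 356 bp after it at E11.5.

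The En1 sequence held 23 CpG dinucleotides against a median of 7 over 32851 promoter sequences of this length, and 57% of its bases were G or C against a median of 52.7%. The 2610027F03Rik sequence held 3 CpG dinucleotides and had 48.3% G or C. The En1 sequence contained CCAAT, the letters of the CCAAT box, on the minus strand at 229 and 187 bp before the start, on either side of the summit. Of all promoter sequences, 37.4% held this motif. It also contained CACGTG, an E-box, at 175 and 158 bp before the start (7.15% of promoters) and TGANTCA, the AP-1 motif, at 163 bp before it (7.81%). The AP-1 match shares its last bases with the nearer E-box. CAGCTG, another E-box, stood 35 bp after the start (16.3%). The other motifs had no match in the En1 sequence: TATAAA (13.6% of promoters), GGGCGG (35.7%), CTTTGA (16.0%), GGCGCC (11.9%), CAGAC (49.6%), TAATTA (5.29%) and AGATAA (11.2%). The 2610027F03Rik sequence matched none of the 11. These matches describe letters and show no binding.

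The 14 E11.5 regions of the domain all overlapped an E10.5 region by at least 1 bp, 1 to 1, and the other 33 E10.5 regions had no E11.5 counterpart. The shared share was thus 29.8% of E10.5 members (95% Wilson interval 18.7 to 44.0%), where 32.3% of the whole E10.5 list was shared. It was 100% of E11.5 members (lower bound 78.5%), where 91.8% of the whole E11.5 list was shared. No region was in the E11.5 list only, and 0 of 14 allows a share of up to 21.4% by a rough bound of 3 divided by 14. The Wilson intervals and this bound cover counting error only. Of the members farther than 1 kb from every listed start, 12 of 44 were shared at E10.5, against 24.0% of such regions in the whole list. At E11.5 it was 12 of 12, against 88.6%. Without regard to signal, the members' shares were therefore near those of the lists they come from. The E10.5 members had a lower median signal than their list (567 against 838), and a comparison by decile of signal follows below.

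**Figure D1:**
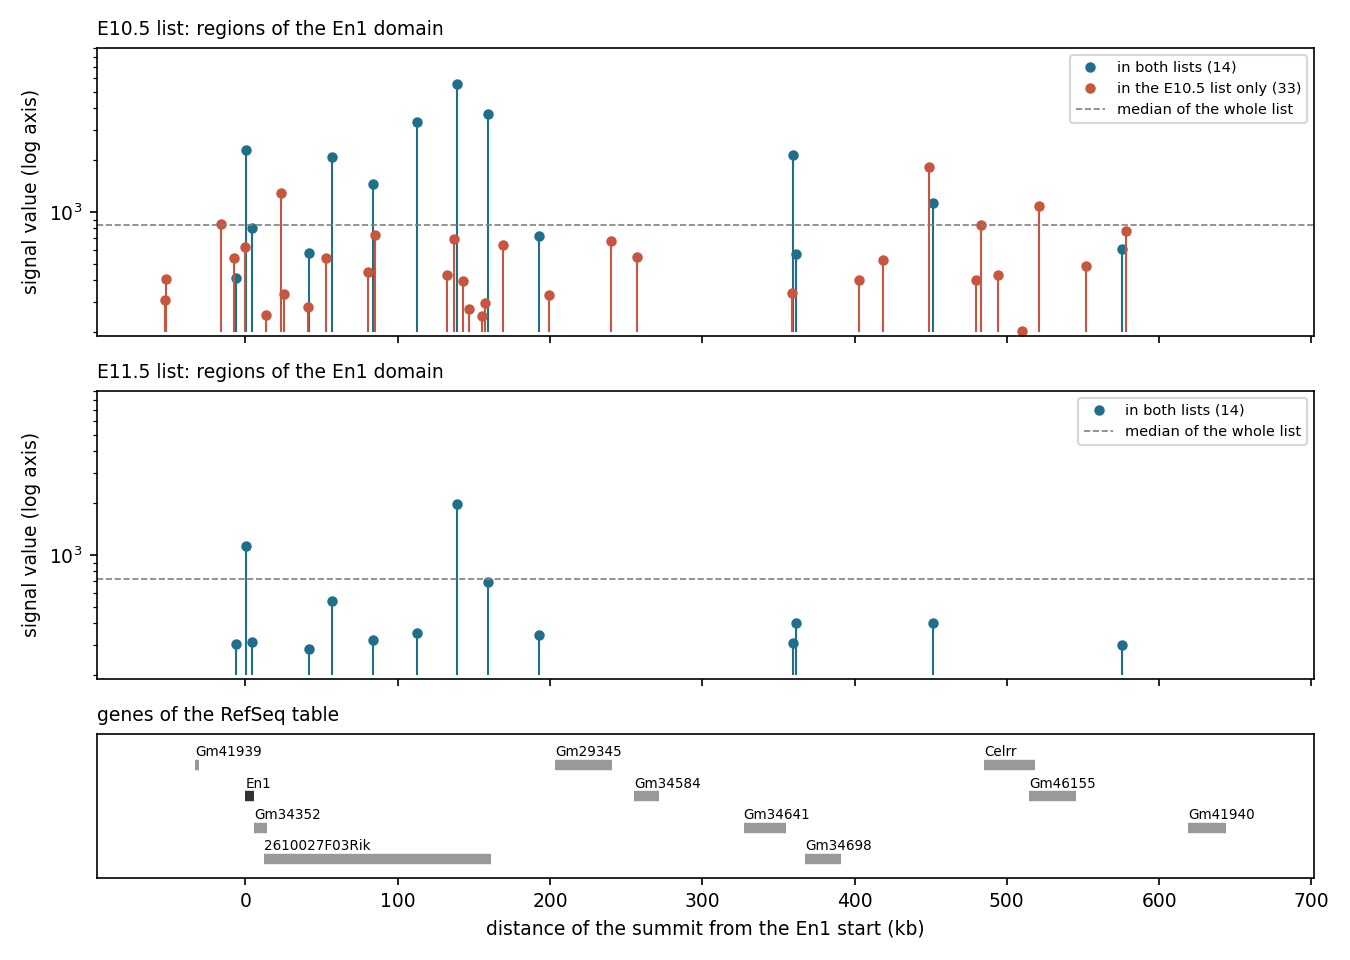
Signal value (log axis) of each En1 domain region against the distance of its summit from the En1 start in kb, for the E10.5 list (47 regions) and the E11.5 list (14), with the genes of the domain drawn as bars below. The tallest stem of both lists stands 139 kb downstream of En1, inside 2610027F03Rik, and the 33 regions in the E10.5 list only are drawn in red.

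By summit position En1 itself, 5.51 kb long, was the densest segment, with 2 regions in each list that covered 31.6% of it at E10.5 and 30.8% at E11.5. More regions lay in 2610027F03Rik, which begins 12.2 kb after the En1 start and ends 161 kb after it. The gene takes 18.6% of the domain's length. It held 19 of the 47 E10.5 regions (128 per Mb) and 6 of the 14 E11.5 regions (40.3 per Mb). Its regions covered 8.93% of it at E10.5 and 2.35% at E11.5. They carried 52.3% and 54.3% of the summed signal of the domain in the E10.5 and E11.5 lists. Beyond this gene, 541 kb up to Insig2 held 20 and 5 regions (37.0 and 9.25 per Mb). The 97.5 kb between Marco and En1 held 6 and 1 by summit position. No region had its summit in the 6.66 kb between En1 and 2610027F03Rik.

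Regions were unevenly spaced. At E10.5 the longest stretches without a region were the last 124 kb before Insig2 and 101 kb between 258 and 359 kb downstream of En1. At E11.5 the longest ran for 166 kb, from 193 to 359 kb downstream. Between neighbouring regions, without the stretches to the domain borders, the median distance was 7.88 kb at E10.5 and 25.8 kb at E11.5. Of the 10 long noncoding RNA genes in the domain, 6 overlapped an E10.5 region. At E11.5 1 did, 2610027F03Rik. Gm41939, Gm34641, Gm34698 and Gm41940 overlapped none in either list.

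At En1 itself (120602487 to 120607991, plus strand), 3 E10.5 regions and 2 E11.5 regions overlapped the gene. The region over the start, at 120602056 to 120602575, had an E10.5 signal of 621 and a −log10 p of 5.39. It ranked 59263 of 99356 in its list and had no E11.5 counterpart. Of E10.5 regions in the same decile of signal, 13.5% had one. The second region, with its summit 595 bp after the start, spanned 120602788 to 120604126 at E10.5 with a signal of 2291 (−log10 p 6.31, rank 23586). Its E11.5 counterpart spanned 120602800 to 120604127 with a signal of 1122 (−log10 p 4.37, rank 14826 of 37413). Both summits fell on the same base, and the widths were 1339 and 1328 bp. The gene thus kept an accessible stretch of nearly the same borders in both lists, while the start site was inside a listed region at E10.5 only. A signal at the start below the E11.5 list's lowest value of 200 would not be seen. Another, smaller region lay 4.5 kb after the start near the end of the gene, with a signal of 807 at E10.5 (120606891 to 120607288) and 313 at E11.5 (120606900 to 120607267).

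The order of the gene-body region within the domain depended on the value ranked. By signal it was the fourth of 47 at E10.5 and the second of 14 at E11.5. By −log10 p it was number 12 and number 8, and by signal per bp number 15 and number 10. Only 15.0% of E11.5 regions had a lower signal per bp.

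Inside 2610027F03Rik the strongest region of the domain lay 139 kb downstream of the En1 start. It spanned 120740706 to 120742260 with a signal of 5523 at E10.5 and 120740768 to 120741900 with 1962 at E11.5. It ranked 8286 of 99356 and 10513 of 37413, and it had the highest −log10 p of the domain in both lists (10.1 and 6.05). It was the single member in the top decile of signal of its list at E10.5. At E11.5 no member was in the top decile. By signal per bp it was again first at E10.5 but number 3 at E11.5, behind narrower regions 193 and 362 kb downstream.

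The next region by E10.5 signal, 159 kb downstream at 120760746 to 120762121, had 3717, and its E11.5 counterpart at 120761006 to 120761743 had 696. The third, 113 kb downstream at 120714891 to 120716318, had 3329, and its counterpart at 120715079 to 120715484 had 350. These were the leading 3 at E10.5 by signal and by −log10 p. At E11.5 the region at 113 kb came seventh by signal and last of 14 by −log10 p (3.85). A region 57.2 kb downstream had 2094 at 120659338 to 120660186 at E10.5 and 536 at 120659546 to 120659969 at E11.5.

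A further pair of places completed the 6 shared regions of 2610027F03Rik. The region after the gene's alternative start, 83.5 kb downstream of En1, had 1457 at 120685755 to 120687073 at E10.5 and 317 at 120685771 to 120686154 at E11.5. The region 41.5 kb downstream had 575 at 120643917 to 120644738 and 283 at 120643937 to 120644352, the lowest E11.5 signal of the domain. The 13 regions of this gene in the E10.5 list only ran from 249 to 1292. The highest of them lay 23.4 kb downstream of the En1 start, at 120625518 to 120626144.

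Beyond 2610027F03Rik the shared regions stood between annotated genes, in 4 places. One lay 193 kb downstream, at 120795315 to 120795718 with a signal of 721 at E10.5 and at 120795337 to 120795514 with 342 at E11.5. It was the narrowest E11.5 member, 178 bp wide, and had the highest E11.5 signal per bp of the domain (1.92). A pair of neighbours lay 360 and 362 kb downstream, between Gm34641 and Gm34698. The first had 2154 at 120961759 to 120962731 and 308 at 120961970 to 120962497. The second had 567 at 120963858 to 120964098 and 403 at 120963876 to 120964097. At E10.5 the first of the pair had the larger signal, and at E11.5 the second had. By signal per bp the second, narrower region was higher in both lists (2.35 against 2.21 at E10.5, 1.82 against 0.583 at E11.5).

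The region 451 kb downstream had 1123 at 121053555 to 121054052 at E10.5 and 399 at 121053790 to 121054029 at E11.5. The farthest shared region, 576 kb downstream, had 610 at 121177712 to 121178390 and 298 at 121177909 to 121178407. On the other side of the gene, the single shared region upstream of En1 lay 5.91 kb before the start. It had 410 at 120596483 to 120596716 at E10.5 and 302 at 120596500 to 120596701 at E11.5, with both summits on the same base.

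In all 14 shared places the E10.5 region was the wider one, by a median factor of 1.85. Over all shared places of the lists this factor was 1.66, and the E10.5 region was wider in 88.9%. The E11.5 region lay wholly inside its E10.5 counterpart in 12 of 14 places, against 79.3% over the lists. The exceptions were the En1 gene body and the region at 576 kb. Summits were a median of 14.5 bp apart (0 to 213 bp), against 27 bp over the lists, and 6 of 14 were at most 10 bp apart, against 35.2%. Counted as shared only with summits within 100 bp, 12 members of each list were shared, against 26.6% of the E10.5 and 70.6% of the E11.5 list. The region at 139 kb and the one at 576 kb then dropped out. With a reciprocal overlap of at least 50%, 9 members of each list were shared, against 20.3% and 53.8% of the whole lists. Across the 14 places the E10.5 and E11.5 signals had a Spearman rho of 0.67, a description over sites of the same libraries.

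**Figure D2:**
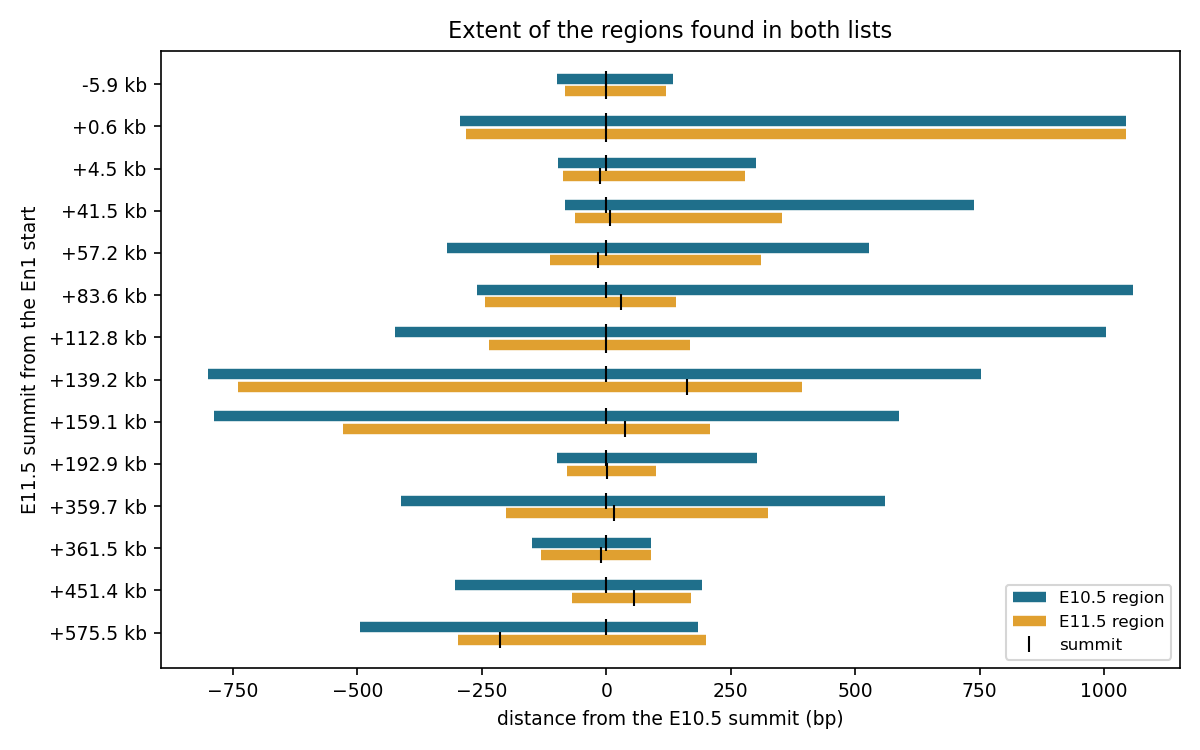
Extent in bp of the 14 regions found in both lists, drawn from the E10.5 summit, with the E10.5 region above the E11.5 region in each row and black ticks at the summits. Rows are labelled with the distance of the E11.5 summit from the En1 start, and the E10.5 bar is the longer one in all 14 rows, with nearly equal bars at the En1 gene body (+0.6 kb).

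A median signal of 446 (202 to 1823) was found for the 33 members without an E11.5 counterpart, against 543 for all such regions of the E10.5 list. The 14 shared E10.5 members had a median of 1290 (410 to 5523), against 3131 for all shared E10.5 regions. The strongest region without a counterpart lay 449 kb downstream of En1 between genes, at 121050719 to 121051777, with a signal of 1823. Its summit stood 113 bp from its far end, on the side of the shared region at 451 kb. In its decile of E10.5 signal 54.0% of regions were shared. The next were the region at 23.4 kb given above (1292, 33.8% shared in its decile) and one 521 kb downstream in Gm46155, at 121123025 to 121123669 (1078, 20.2%).

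The other 7 of the 10 highest E10.5-only regions had signals of 642 to 850. They lay 15.7 kb upstream of En1 at 120586541 to 120586986 (850) and 483 kb downstream at 121085012 to 121085666 (843). Others were 578 kb downstream at 121180192 to 121180846 (774), and 85.4 and 137 kb downstream in 2610027F03Rik at 120687608 to 120688180 (734) and 120739270 to 120739944 (697). The last were 240 kb downstream in Gm29345 at 120842130 to 120842861 (677) and 169 kb downstream at 120771231 to 120771705 (642). The 3 weakest members lay 13.7 kb downstream at 120616031 to 120616249 (250.4), 155 kb downstream at 120757664 to 120758150 (249) and 510 kb downstream in Celrr at 121112300 to 121112564 (202), a signal above that of 0.299% of the list.

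Overlap rose with signal in the domain as it did over the list. None of the 10 members in the 2 lowest deciles of E10.5 signal was shared, and 6 of the 7 in the 3 highest were. If each member had the shared share of its decile, 8.97 of 47 would be shared, where 14 were. This compares sites of the same 2 lists and has no replicate check.

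**Figure D3:**
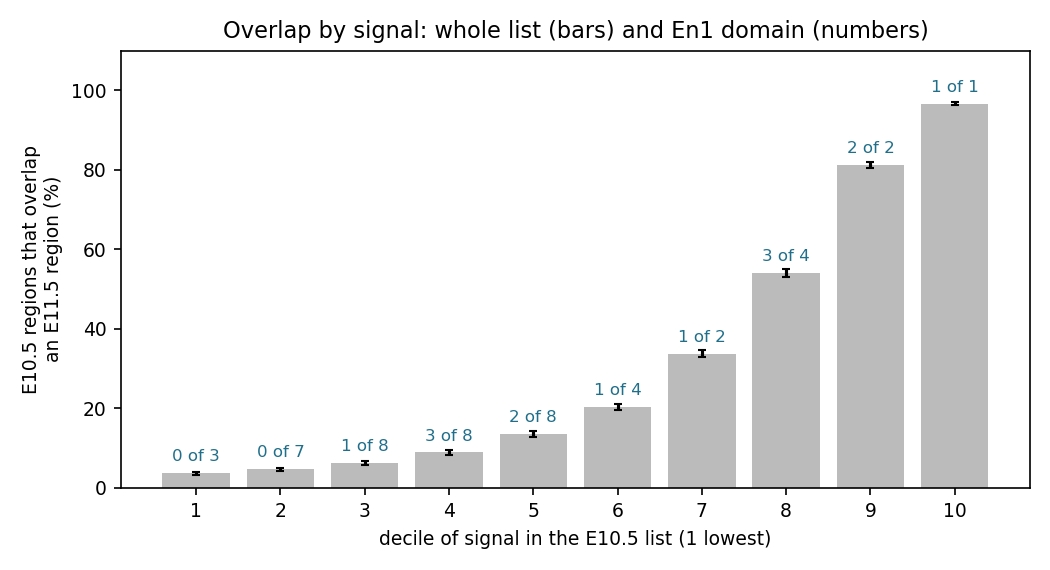
Percent of E10.5 regions that overlap an E11.5 region in each decile of E10.5 signal over the whole list (bars, with 95% Wilson intervals for counting error), with the numbers of En1 domain members shared out of those in the decile written above. The bars rise from 3.63% to 96.7%, and the domain numbers run from 0 of 3 to 1 of 1.

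Most members had modest values for their lists. At E10.5 13 of 47 had a signal above the median of the list, and their own median was 567. At E11.5 2 of 14 did, the region at 139 kb and the En1 gene body, and their own median was 346. Widths were also below those of the lists, with a median of 475 bp for E10.5 members and 411 bp for the E11.5 members. A −log10 p of at least 5 was reached by 21 of 47 members at E10.5, against 56.8% of the list. At E11.5 2 of 14 reached it, against 53.5%: the regions at 139 and 159 kb. Of the 21 E10.5 members above the threshold, 11 overlapped a region of the whole E11.5 list, against 52.6% of such regions over the list, and both E11.5 members above it overlapped the whole E10.5 list, against 96.6%. With this threshold in both lists, which leaves only 2 E11.5 members to overlap, 2 of 21 E10.5 members and 2 of 2 E11.5 members were shared, against 32.4% and 94.2% over the lists. The E11.5 region of the En1 gene body was below the threshold, and both E10.5 regions at the En1 start were above it.

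Which list had more regions in the domain changed when the lists were brought to equal length. With the E10.5 list reduced to its 37413 regions of highest signal, the number in the E11.5 list, the domain held 9 E10.5 members against 14 at E11.5. Of these, 7 E10.5 and 7 E11.5 members were shared, against 68.9% and 75.3% over the lists. Reduced by −log10 p, it held 12 E10.5 members, and 9 of these and 9 of the 14 E11.5 members were shared, against 70.2% and 76.4%.

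**Figure D4:**
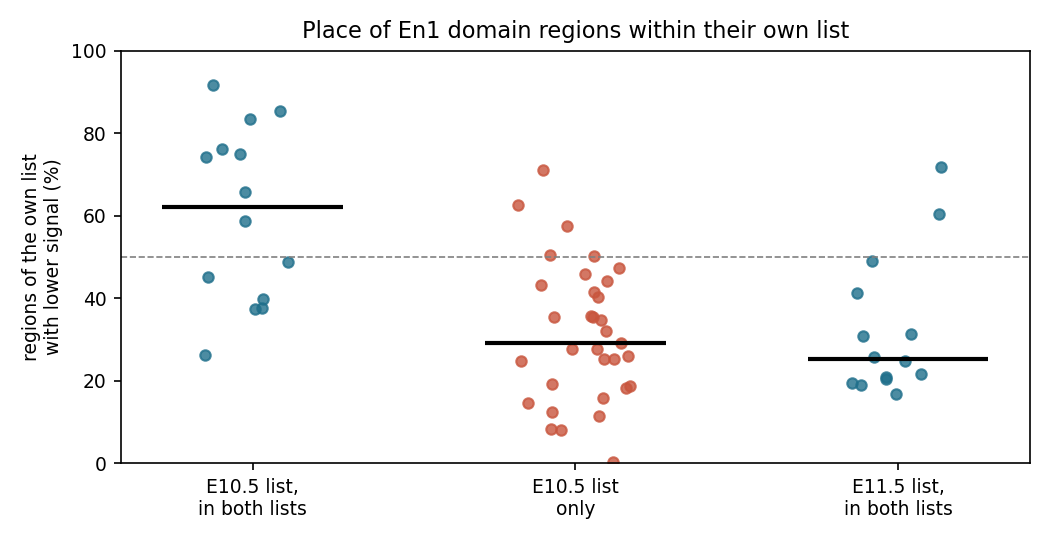
Percent of regions of the own list with a lower signal than each En1 domain member (points, spread sideways for sight), for E10.5 members in both lists (14), E10.5 members in that list only (33) and E11.5 members (14), with black bars at the group medians and the list median dashed at 50. The points of the 14 E11.5 members lie below the dashed line in all but 2 cases.

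In the lists as deposited, the domain was denser in regions than the genome at both stages. It held 58.8 regions per Mb at E10.5, against 37.4 over the stretches between the first and last region of each chromosome, and 17.5 at E11.5 against 14.1. This order depended on the threshold. At a −log10 p of at least 5, 14.3% of E11.5 members (2.50 per Mb) but 53.5% of that list remained, so the domain was then sparser than the genome. Cut by signal to the E11.5 list's length, the E10.5 list also left the domain sparser, with 9 regions. Cut by −log10 p, with 12, it did not. Covered length gave another order. Regions covered 3.50% of the domain at E10.5 against 3.18%, but 0.884% at E11.5 against 1.10%. Among 1131 intervals of 500 to 1000 kb between protein-coding neighbours, a set added after the En1 values were seen, the median was 26.8 per Mb at E10.5 and 8.25 at E11.5. Denser than the En1 domain were 211 of them by E10.5 regions and 174 by E11.5 regions. Some of these intervals share sequence.

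Intervals drawn in the same way around other genes give a scale. En2, the paralogue of En1, had 8 E10.5 regions and 4 E11.5 regions in 122 kb (65.5 and 32.7 per Mb). Shh, the posterior limb signal, had 11 and 2 in 774 kb (14.2 and 2.59 per Mb), an interval of like length that does not reach the Shh limb enhancer in Lmbr1. Wnt7a had 18 and 5 in 192 kb (93.9 and 26.1 per Mb). Around Lmx1b there were 49 and 12 in 261 kb (187 and 45.9 per Mb). The En2, Wnt7a and Lmx1b intervals, all shorter, were thus denser than the En1 domain in both lists. In each of these 4 intervals all E11.5 regions were shared, so the absence of E11.5-only regions was not particular to En1. The highest E10.5 signal was 5523 in the En1 domain, 4016 around En2, 2002 around Shh, 6423 around Wnt7a and 22123 around Lmx1b. No test was made between these intervals.

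**Figure D5:**
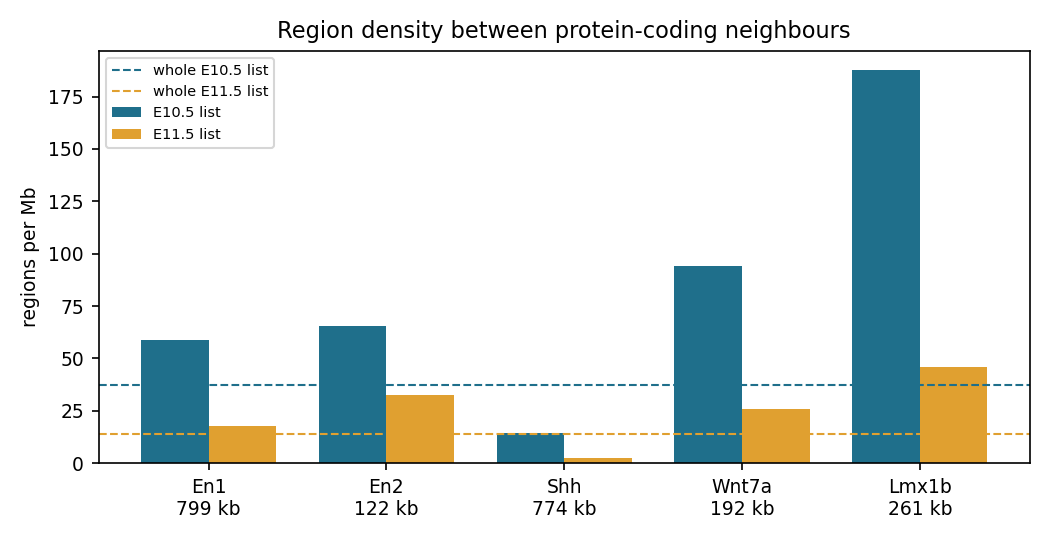
Regions per Mb in the intervals between the protein-coding neighbours of En1, En2, Shh, Wnt7a and Lmx1b (interval length under each name), for the E10.5 and the E11.5 list, with dashed lines at the density of each whole list. The En1 bars stand at 58.8 and 17.5, above their dashed lines, and the Shh bars at 14.2 and 2.59 stand below them. The bars of En2, Wnt7a and Lmx1b are taller than those of En1 in both lists.

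Of 32 genes of limb dorsoventral patterning, 21 have a start in the promoter table. All 21 had a region within 1 kb of a start at E10.5, against 68.2% of 17492 protein-coding genes, and 18 had one at E11.5, against 62.8%. The 3 without one at E11.5 were all ligand genes. They were Wnt7a, the dorsal ectoderm signal (E10.5 signal 3300), Wnt3, an ectodermal ligand needed for the apical ridge (3407), and Wnt3a, a related ligand (380). In the deciles of these E10.5 signals 81.3% (Wnt7a and Wnt3) and 6.20% (Wnt3a) of regions were shared. Of the 7 surface ectoderm markers looked up, 5 (Krt8, Krt18, Epcam, Tfap2a and Grhl3) had a promoter region in both lists. The other 2, Krt5 and Krt14, had one at E10.5 only, with low signals of 246 and 320. In their deciles of E10.5 signal 3.63% and 4.66% of regions were shared. The mesenchyme marker Tbx4 (6772) and the muscle marker Myf5 (2065) also had one at E10.5 only, in deciles where 96.7% and 54.0% of regions were shared. The blood marker Gata1 went the other way, with one at E11.5 only (278), in a decile of that list where 85.5% of regions were shared. The part of cell makeup and list length in these differences was not tested. Bmp4, a BMP ligand, kept one with signals of 4809 and 1099. All 4 receptor genes, among them Bmpr1a (5711 and 5138), and all 6 mediator genes, among them Ctnnb1, the beta-catenin gene (5018 and 3266), had one in both lists. So did the BMP and Wnt inhibitors Grem1 and Dkk1 and the 5 transcription factor genes. Among the latter, by signal, En1 had the lowest E10.5 value, 2291, and Lmx1b the lowest at E11.5, 633, after the highest at E10.5, 22123. By −log10 p the order differed. Sp8 was lowest (5.95) and Msx1 highest (11.9) at E10.5, and En1 was lowest at E11.5 (4.37). With a −log10 p of at least 5, 19 of the 21 had one at E10.5, against 64.3% of protein-coding genes, and 15 at E11.5, against 57.2%. At this threshold En1, Lmx1b and the receptor gene Bmpr1b had none at E11.5, besides the 3 ligand genes, and Wnt3 and Wnt3a had none at E10.5.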

How the data were processed

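ATAC-seq was done on wild-type mouse fore- and hindlimb cells, 2 samples at each of 2 stages, grouped by sample title. Per the labels' protocols, cells were fixed and tagged with Tn5. The submitters' processing notes name cutadapt, Bowtie2, SAMtools, deepTools and Genrich. Their settings, any Tn5 shift and the way samples were combined are not given in the sources used here. Per the file headers, each stage has 1 narrowPeak list on mm10. The authors deposited a signal value, a −log10 p-value and a summit position per peak. All are the authors' own values. Peaks were ranked and thresholds applied within each list. Between the lists, summit positions and signals of shared regions were set side by side as a description.

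Peaks on chromosomes 1 to 19, X and Y were read as 1-based regions. Lists were compared by overlap of at least 1 bp, and shares have 95% Wilson intervals for counting error. Ranks run from the highest signal, and deciles are of a list's signal. Gene positions, start sites and sequences came from RefSeq tables of GRCm38.p6. The NCBIM37 genome was not used, and no sequence of other regions was read. A promoter region lies within 1 kb of a listed start.

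The text names each E11.5 member and its E10.5 counterpart, regions at En1, and the 10 highest and 3 lowest E10.5-only members. Alternatives covered thresholds, equal list lengths, overlap rules, domain borders and ranked values. Python 3.11.15, pandas 2.3.3 and SciPy 1.17.1 were used, and the overlap code was checked against a direct count on simulated intervals. The members, gene lists and rules were chosen with earlier results of these data known.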

Additional observations from a re-analysis of the deposited data

How the results depend on the processing

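No paired analysis was possible because the 2 samples of a stage share 1 list, and leaving out a sample was not possible either. Depth is unknown and limits all counts. Over 8 summary results, 11 alternative values stayed within 1.5 times the reported count or inside its 95% interval, and 13 moved.

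With a −log10 p of at least 5, which leaves fewer regions by construction, 21 regions of the E10.5 list (26.3 per Mb) and 2 of the E11.5 list (2.50 per Mb) fell in the domain, and 9.52% of the E10.5 members were shared, with 2 E11.5 regions left to overlap. With the E10.5 list cut to the length of the E11.5 list by signal, it held 9 E10.5 regions, with 77.8% of E10.5 and 50% of E11.5 members shared. By −log10 p it held 12, with 75% and 64.3%. Reciprocal overlap of 50% left 64.3% of E11.5 members shared. A window of 500 kb on either side of En1 held 23 E11.5 regions and reaches past Marco. Ranking by −log10 p kept 20 of 28 named E10.5 and 9 of 14 named E11.5 regions within 10 percentage points of their place by signal. Ranking by signal per bp kept 12 and 5. The cause of these shifts in rank was not tested.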
